A study of Mus musculus with 74 samples.

Results

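Day 30 cells made with 4 factors were compared with the established line made with the same 4 factors, to list the genes that a culture at day 30 still expressed and the line did not, and those it had yet to reach. The comparison rests on 4 libraries, which were taken by their labels: 2 of the day 30 cells and 2 of the line, among 54 labelled libraries in the NSC-medium table and 74 in the whole series. The study converted mouse embryonic fibroblasts (MEFs) with a Sox2-GFP reporter into induced neural stem cells (iNSCs). Cells received the M2rtTA activator and Dox-inducible lentiviral factors, were kept in NSC medium (with the growth factors bFGF and EGF) and received Dox for 18 days. RNA was enriched for poly(A), sequenced and summarised as 1 normalized value per gene.

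The day 30 group, called day 30 below, carried Brn4 (the gene Pou3f4), Klf4, c-Myc and eSox17FNV, an engineered version of Sox17, and was sampled after Dox had been withdrawn. The group iNSC_BKMF, called the line below, carried the same 4 factors and was sampled at passage 15, also in NSC medium. Both groups descend from cells that carried the reporter and the lentiviruses, so these are shared by all 4 libraries. The labels do not say whether the line was grown from the day 30 cultures, whether it is 1 clone, or whether replicates were separate cultures. Each p-value therefore rests on a spread between libraries that may be technical, pooled over the 53 libraries of the fit. A further 4 groups of 2 libraries gave context: Sox2-GFP MEFs at passage 1, primary Sox2-GFP neural stem cells (NSCs) at passage 15, and the cocktail of Klf4 and eSox17FNV at day 30 (K_FNV) and as a line at passage 15 (iNSC_KF).

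Neural stem cells of the kind grown in EGF and bFGF divide without differentiating and express SoxB1 factors, the bHLH factor Olig2 and radial glial genes such as Fabp7, which encodes a brain fatty acid binding protein. Notch signalling holds such progenitors undifferentiated, and its target Hes5 encodes a repressor of neurogenic genes. Fibroblasts are known for collagens and for matrix proteins such as periostin, the product of Postn, and conversion into a neural line requires that these genes are shut while the neural ones are opened.

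The deposited values have the pattern of quantile normalization within 10 classes of genes by GC content, a step that the sources used here do not give. A value is therefore read as a rank among genes of like GC content, read depth is unknown, and a gene at 78139 is the highest of its class in that library. Replicates correlated at 0.959 (day 30) and 0.956 (line) on the log2 scale over genes, and libraries of different groups at 0.808 to 0.812. A pair of measured facts touches all results. Xist, the X inactivation RNA of female cells, stood at 78139 and 78139 at day 30 and at 313 and 328 in the line. Over the 53 libraries of the fit it ran from 6160 to 78139 in all 13 of days 24 and 30 and from 0 to 328 in the other 40, while the Y-linked Ddx3y was at 1575 or more in all 53. In the library left out of the fit, BKM_Sox2 day 24 replicate 1, Xist was at 8534 and Ddx3y at 50. The day 30 libraries thus held Xist-expressing cells that the line did not show, and a difference of cell source cannot be told apart from the difference of day and passage. This split was seen after the values were examined. In addition, 671 olfactory and vomeronasal receptor genes, which such cells should lack, had values above 0 for 368 to 385 genes in each of the 4 libraries, with a 95th percentile of 585 to 708. A further 573 genes were at 0 in some library and at 100 or more wherever they were above 0, and 528 of them lay in the 3 classes of lowest GC content. These genes and the receptor genes are called the background class below. The name is a label for both sets and does not mean low expression, since Postn, Lum and Dcx belong to it.

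At a 2-fold difference and an adjusted p below 0.05 (limma, Benjamini-Hochberg over 20760 genes), 3160 genes (15.2%) were higher and 2994 genes (14.4%) were lower at day 30 than in the line, together 29.6% of all genes tested. For 6014 genes (29%) the call came with libraries that did not overlap between the groups, a state that 79.7% of all genes tested showed, called or not. The median difference over all genes was -0.16 on the log2 scale, and differences are read against it. Rescaling the libraries by the median of their gene ratios set it to 0.00 and moved the split to 3629 higher and 2285 lower. The library left out of the fit correlated at 0.058 with its replicate. With it kept, 3763 genes were called. In these bulk samples, fewer cells of a type and less RNA per cell cannot be told apart.

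**Figure D1:**
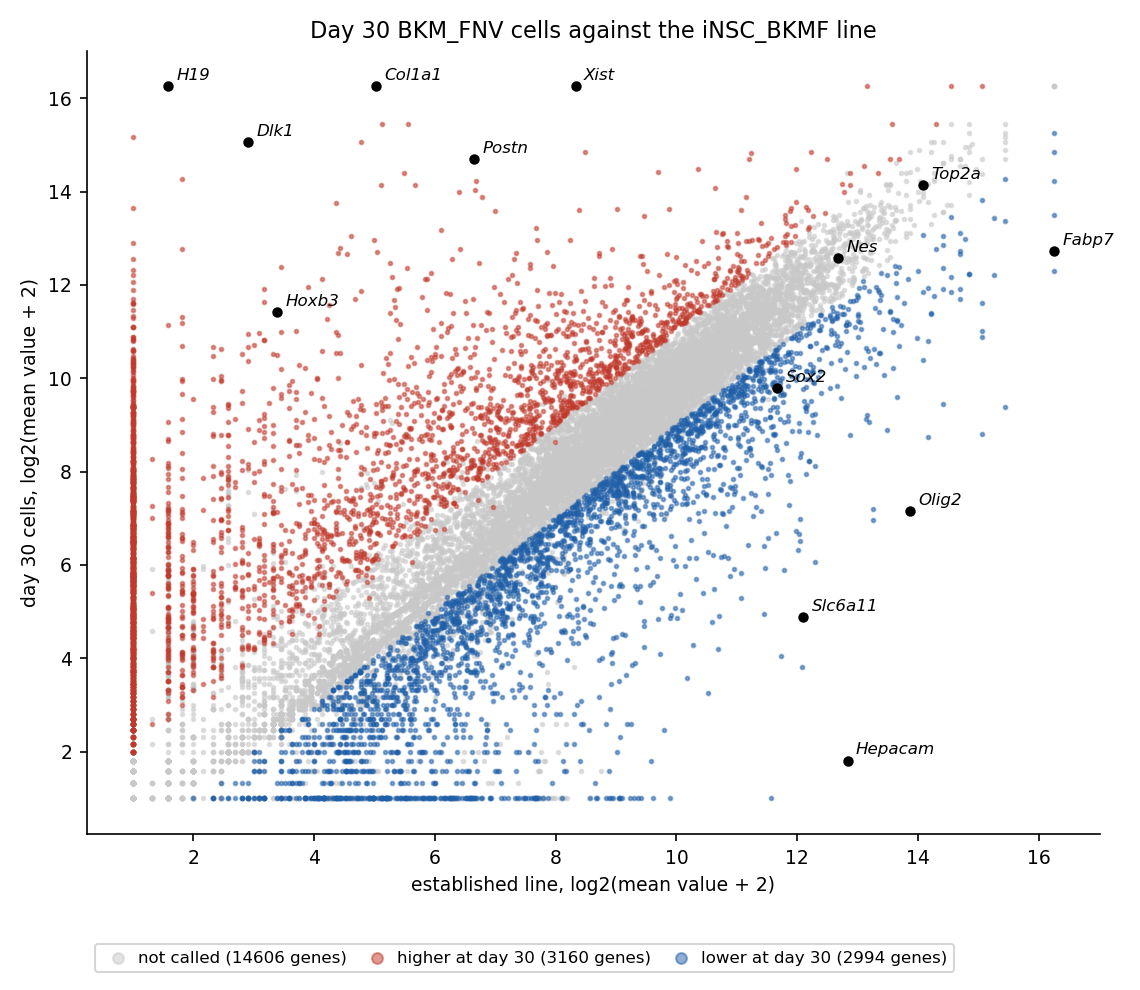
Mean value of each of 20760 genes in the 2 libraries of the line (x axis) and the 2 libraries of day 30 cells (y axis), both as log2(mean value + 2), with called genes in colour. Fibroblast and imprinted genes such as Col1a1, H19 and Dlk1 lie far above the diagonal, Hepacam, Olig2 and Slc6a11 far below it, and Nes on it.

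Of the 3 genes chosen to mark the cells, Olig2 and Fabp7 were lower and Postn was higher at day 30 than in the line. Olig2, a master factor of ventral neural progenitors and oligodendrocytes, stood at 157 and 123 at day 30 and at 13468 and 16291 in the line (log2 -6.72 ± 0.15, adjusted p = 5.46e-24). Fabp7 stood at 6752 in both day 30 libraries and at 78139 in both of the line (log2 -3.53 ± 1.53, adjusted p = 0.0493). Postn stood at 23868 and 29407 at day 30 against 197 and 0 in the line (log2 10.38 ± 0.99, adjusted p = 5.98e-10). For each of the 3 genes every day 30 library lay on the same side of both line libraries, as was the case for 79.7% of all genes tested. The Fabp7 call was lost when any 1 of the 4 libraries was left out, though the difference stayed at log2 -3.53. Its replicates were equal within each of the 2 groups, so the error of 1.53 came from the rest of the fit. Both line values were the highest of their class, at which a larger difference cannot be seen. After rescaling the Fabp7 call was lost as well (adjusted p = 0.0762). In the course before day 30, Olig2 was at 2 and 2 on day 18 and at 14 and 13 on day 24, and Fabp7 was at 243 and 232 and then at 1664 and 1575. Postn was at 34127 and 34127 on day 18 and at 12545 and 12926 on day 24, so both day 30 libraries lay above both day 24 libraries.

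**Figure D2:**
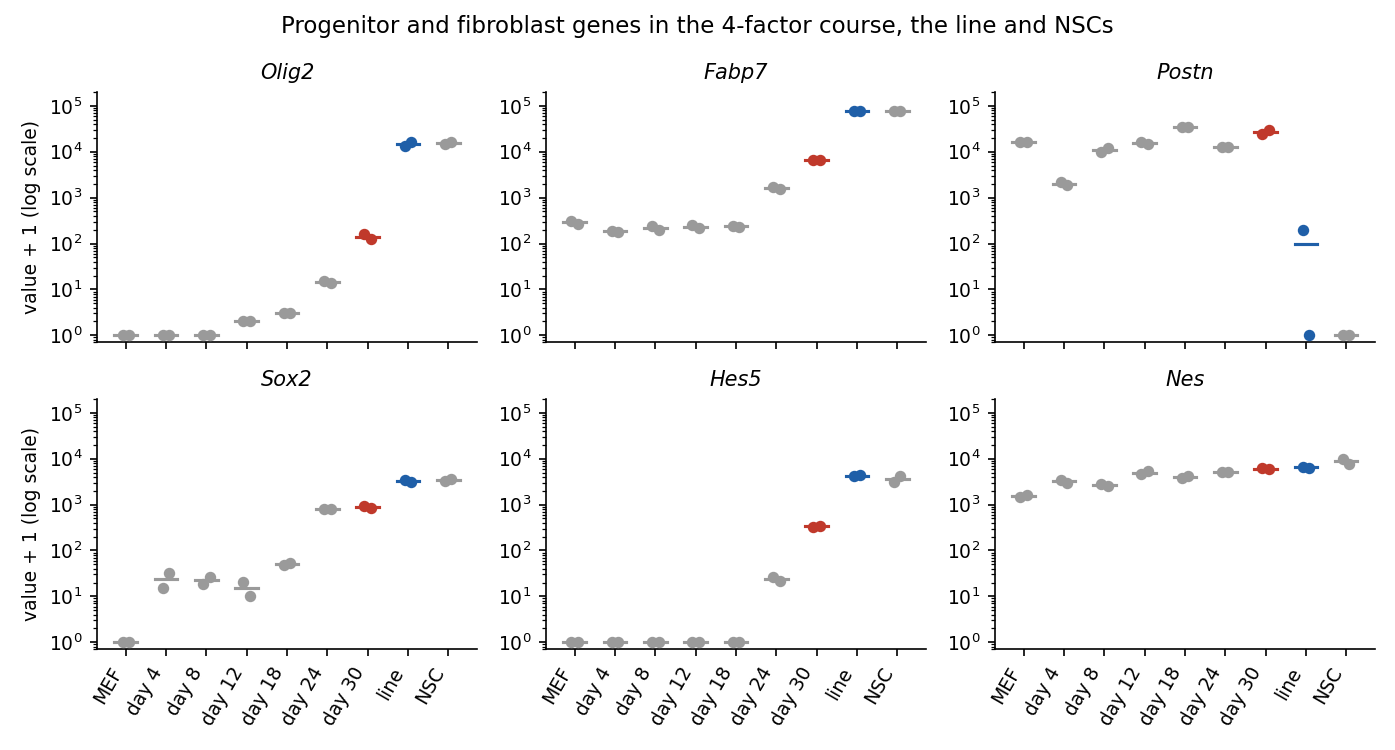
Value plus 1 on a log axis of 6 genes in MEFs, in the 4-factor cells at days 4 to 30, in the line and in NSCs; points are libraries, 2 per group, and bars are group means. Olig2, Fabp7, Sox2 and Hes5 climb late and remain below the line at day 30, Postn stays high, and Nes lies close to the line.

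Of 30 neural stem and progenitor genes, 18 were lower and 4 higher at day 30, with 8 not called and a median log2 difference of -1.42. After rescaling 14 were lower and 4 higher. Nes, the intermediate filament used as a progenitor marker, was at 6162 and 5961 at day 30 and at 6754 and 6372 in the line, and was not called (log2 -0.11). Cdh2, which encodes N-cadherin, was at 4444 and 4577 against 3392 and 3143 and was not called either. Both genes were within 2-fold of the line in every library. They are 2 of the 8 members not called, and a call required at least a 2-fold difference.

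Among the lower genes, Sox2, a SoxB1 factor that was not delivered in this cocktail, was at 930 and 845 at day 30 and at 3365 and 3143 in the line (log2 -1.87 ± 0.77, adjusted p = 0.0372). That call too was lost without any 1 of the 4 libraries (adjusted p = 0.0916 to 0.118) and after rescaling (adjusted p = 0.0787). Nr2e1, which encodes the stem cell repressor Tlx, was at 0 and 1 against 398 and 403 (log2 -7.36 ± 0.28, adjusted p = 8.57e-19). Bcan, the gene of the brain proteoglycan brevican, was at 421 and 465 against 34130 and 34130 (log2 -6.26). Olig1, the neighbour and relative of Olig2, was at 686 and 656 against 44404 and 44404 (log2 -6.04), so both Olig genes were lower by more than 6 on the log2 scale. Lhx2, a forebrain progenitor factor, was at 16 and 18 against 718 and 689 (log2 -5.22). The SoxB1 relatives Sox3 (log2 -2.76), Sox1 (log2 -1.44) and the glial factor Sox9 (log2 -1.15) differed less than these. Sox9 was not called after rescaling (log2 -0.90).

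The 4 progenitor genes that were higher at day 30 are Prom1, Zic1, Zbtb16 and Sox11. Prom1, which encodes the membrane protein CD133, was at 1838 and 1826 at day 30 and listed at 0 in the line. Zic1, a factor of dorsal neural tube, was at 1395 and 1519 against 0 and 16 (log2 7.92). Sox11, a SoxC factor of newborn neurons, was at 10522 and 9217 against 3800 and 3824 (log2 1.37). Prom1, Zic1 and Sox11 were thus above the line in both day 30 libraries, while 79.7% of all genes tested did not overlap between the groups. Members of lists that fall outside the naming rule were picked for their role with their values in view.

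Genes of glia were more often lower than higher at day 30. Of 18 astrocyte and radial glial genes, 11 were lower and 3 higher at day 30 (median log2 -2.19), and of 12 oligodendrocyte lineage genes 7 were lower and 3 higher (median log2 -2.59). Hepacam, which encodes an adhesion protein of astrocytes, was at 3 and 0 at day 30 and at 7157 and 7445 in the line (log2 -11.17 ± 0.34, adjusted p = 3.26e-21). Plxnb3, a plexin, was listed at 0 in both day 30 libraries and at 2955 and 3087 in the line. The glial receptor Gpr37l1 was listed at 0 against 911 and 999. All 3 were listed at 0 in both libraries of day 18 and of day 24 as well.

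Slc6a11, an astrocytic GABA transporter, was at 24 and 31 against 4388 and 4388 (log2 -7.23 ± 0.28, adjusted p = 1.57e-18). Agt, the angiotensinogen gene that astrocytes express, was at 8 and 7 against 1524 and 1432 (log2 -7.28 ± 0.60, adjusted p = 2.67e-11). Gjc3, which encodes a glial connexin, was at 14 and 15 against 3435 and 3392 (log2 -7.69 ± 1.40, adjusted p = 3.02e-05). The day 30 levels of these genes were low but above 0, in contrast to Plxnb3 and Gpr37l1. Ntsr2, a neurotensin receptor of astrocytes, and Cmtm5 were listed at 0 at day 30 against 662 and 657, and 468 and 468, in the line. Ptgds, the brain prostaglandin D synthase gene, was at 2 and 1 against 752 and 777 (log2 -7.79 ± 0.43, adjusted p = 4.35e-15).

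Other genes of the 2 glial lists differed less. Fgfr3, the FGF receptor of radial glia, was at 177 and 114 against 9479 and 10068 (log2 -6.08). Aldoc, the brain aldolase gene, was at 548 and 513 against 9808 and 8954 (log2 -4.14). Cspg4, the gene of the NG2 proteoglycan of oligodendrocyte precursors, was at 151 and 129 against 2833 and 2559 (log2 -4.25). Cnp, which encodes a myelin enzyme, was at 91 and 89 against 4141 and 4357 (log2 -5.53). The members called higher were Gja1, Tnc and Hopx of the astrocyte and radial glial list, and Pdgfra, Mbp and Myrf of the oligodendrocyte list. Gja1, the connexin 43 gene, was at 2920 and 3143 against 243 and 243 (log2 3.63). Pdgfra, a receptor of both fibroblasts and oligodendrocyte precursors, was at 3144 and 3294 against 333 and 381 (log2 3.17). Gfap was low in both groups, at 86 and 93 against 110 and 122, and was not called.

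By the naming rule, the 12 largest deficits at day 30 include 8 genes of the background class described above, Muc15, Cyp3a41a, AV320801, Vmn2r93, Olfr731, Defb41, Nat1 and Tmem71. Each was listed at 0 at day 30 and between 410 and 810 in the line. In these genes no library of the fit had a value above 0 and below 266, so a single step separates the groups. The calls of Olfr731 (adjusted p = 0.118 to 0.128), Nat1 (0.0696 to 0.0872) and Tmem71 (0.0826 to 0.0972) were lost when any 1 of the 4 libraries was left out. Cmtm5, Ptgds, Gjc3, Agt and Slc6a11 above were taken by the same rule with such genes removed, a choice made after the values were seen.

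Notch pathway genes were lower at day 30 in 8 of 16 cases, higher in 2 and not called in 6 (median log2 -1.09), with the same counts after rescaling. The ligand gene Dll1 was at 927 and 895 against 6160 and 6752 in the line (log2 -2.82), and the receptor gene Notch1 at 4631 and 4278 against 16291 and 12929 (log2 -1.70). Lfng, the glycosyltransferase that modifies Notch receptors, was at 436 and 453 against 3007 and 3207 (log2 -2.80). These 3 genes were lower in both day 30 libraries than in either line library, while 79.7% of all genes tested did not overlap between the groups.

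The target Hes5 was at 327 and 340 at day 30 and at 4176 and 4358 in the line (log2 -3.67 ± 0.48, adjusted p = 2.01e-07), and was listed at 0 on day 18 and at 25 and 21 on day 24. Hey1, another target, was at 273 and 282 against 1280 and 1191 (log2 -2.15). Hes1 (406 and 434 against 375 and 313) and Hey2 (288 and 283 against 364 and 334) were not called. Hes5, Hey1 and the related Hes6 (879 and 1083 against 2609 and 2702, log2 -1.44) were thus called lower, while Nrarp, a feedback inhibitor, was not called (961 and 860 against 1510 and 1519). Notch3, a receptor shared by progenitors and mural cells, was at 8134 and 7448 against 5781 and 5876 and was not called. The exceptions in the other direction were Jag2, a ligand gene, at 179 and 203 against 7 and 11 (log2 4.15), and the target Heyl, at 27 and 35 and listed at 0 in the line.

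The windows upstream of Hes5 and Hey2 are shown because Hes5 was called lower and Hey2 was not, and both are known targets of the Notch cofactor Rbpj. They are the 250 bases before the start site in the RefSeq table of GRCm38.p6, at chr4:154960673-154960922 on the plus strand for Hes5 and chr10:30842784-30843033 on the minus strand for Hey2. Capitals mark each match to TGGGAA or its reverse complement TTCCCA, the core that Rbpj is known to bind. Both strands were searched, and no other motif was.
Hes5: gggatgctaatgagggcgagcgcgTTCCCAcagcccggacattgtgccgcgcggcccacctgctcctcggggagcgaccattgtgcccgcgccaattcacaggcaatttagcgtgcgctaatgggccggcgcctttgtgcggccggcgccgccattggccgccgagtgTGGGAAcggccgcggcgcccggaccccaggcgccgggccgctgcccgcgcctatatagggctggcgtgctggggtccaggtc
Hey2: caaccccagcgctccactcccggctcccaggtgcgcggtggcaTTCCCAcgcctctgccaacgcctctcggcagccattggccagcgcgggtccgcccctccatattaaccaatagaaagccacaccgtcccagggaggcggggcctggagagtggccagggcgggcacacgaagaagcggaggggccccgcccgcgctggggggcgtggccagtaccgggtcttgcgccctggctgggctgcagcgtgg
Hes5 holds 2 matches and Hey2 holds 1. The windows of Nrarp and of both Hes6 starts in the table were searched too and hold 0. Of 32851 promoter windows of this length, 7094 (21.6%) hold at least 1, so a match is a description of the sequence and not a site.

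Canonical Wnt targets were lower in 7 of 12 cases and higher in 3 (median log2 -1.26). With BKM_Sox2 day 24 replicate 1 kept in the fit 3 were lower, and in a fit of the compared groups only 1 was higher. Axin2, the feedback inhibitor most used as a readout of the pathway, was at 239 and 341 against 1078 and 1166 (log2 -1.97), and Znrf3, which removes Wnt receptors, at 150 and 116 against 587 and 664 (log2 -2.23). Rnf43, its relative, was at 6 and 5 against 37 and 50 (log2 -2.59). The 3 higher genes were Nkd2, Sp5 and Dkk1, with Nkd2 at 598 and 643 against 3 and 3 (log2 6.96). Its relative Nkd1 was at 428 and 454 against 1267 and 1324 (log2 -1.55). The 2 Nkd genes thus lay on opposite sides.

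Neuronal genes were higher at day 30 in 11 of 21 cases and lower in 3 (median log2 1.01, and 14 higher after rescaling). Stmn2, a growth cone gene of young neurons, was at 1260 and 1160 at day 30 and listed at 0 in the line. The neurofilament gene Nefl was at 2004 and 1983 against 13 and 0 (log2 8.51), and the glutamate transporter gene Slc17a6 at 144 and 158 and listed at 0 in the line. Dcx, the doublecortin gene of migrating neurons, was at 4809 and 4240 against 391 and 402 (log2 3.50). The 3 lower genes were Map2, a dendrite gene, at 5008 and 5008 against 78139 and 78139 (log2 -3.96), Syn1 at 29 and 37 against 145 and 154 (log2 -2.12), and the neurogenic factor Neurog2 at 24 and 21 against 70 and 93 (log2 -1.76). Ncam1, at 2377 and 2463 against 3667 and 3416, was not called.

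Positional genes separated the groups. Of 37 Hox genes, which pattern the hindbrain and trunk, 27 were higher, 1 was lower and 9 were not called at day 30 (median log2 4.01), and 24 were listed at 0 in both libraries of the line. Hoxb3 was at 2635 and 2833 at day 30 and at 10 and 7 in the line (log2 8.04). Hoxb4 was at 889 and 946, Hoxb8 at 812 and 922 and Hoxb5 at 468 and 523 at day 30, and all 3 were listed at 0 in the line. In the Hoxa cluster, Hoxa3 (452 and 422 against 323 and 280) and Hoxa5 (366 and 369 against 337 and 295) were not called. Hoxa2, Hoxa9, Hoxa10 and Hoxa11 were higher at day 30, with Hoxa2 at 390 and 398 against 140 and 120 (log2 1.59) and Hoxa9 at 120 and 125 against 0 and 7 (log2 4.87). Hoxa6 was the 1 lower gene, at 4 and 7 against 16 and 14 (log2 -1.21), and its call was lost without day 30 replicate 1 or either line library (adjusted p = 0.0634 to 0.189), with a pseudocount of 1 or 16, and after rescaling. The clusters were not tested against each other.

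Of 15 forebrain and midbrain genes, 7 were higher and 5 lower at day 30. The lower ones included Otx1, Six3 and Lhx2. Six3, a factor of the anterior neural plate, was at 15 and 15 against 815 and 886 (log2 -5.65). Otx1 was listed at 0 at day 30 and at 187 and 145 in the line. The genes that were higher at day 30 were Otx2, En1, En2, Pax2, Pax5, Lmx1a and Lmx1b. Pax2 (216 and 221) and Pax5 (92 and 98) were listed at 0 in the line, and En2 was at 855 and 849 against 179 and 186 (log2 2.21). Otx1, Six3 and Lhx2 were therefore lower, and Pax2, Pax5 and En2 higher, at day 30 than in the line. The values of Pax2 and Pax5 lay below the 95th percentile of the receptor genes in the day 30 libraries (617.5 and 585). That percentile was 708 and 695.5 in the line libraries. The line values of Otx1, and of Nr2e1, Ntsr2 and Cmtm5 above, lay below it too.

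A group of 83 genes was called higher at day 30, reached a mean of 100 there and was below 10 in every MEF and NSC library. The group was defined after the values were seen, so its size is a description. Without those that were at 0 in some library and at 100 or more wherever they were above 0, 69 remained. The members described here were picked with their values in view. Dbx1, a factor of spinal interneuron progenitors, was at 1037 and 927 at day 30 and at 0 and 3 in the line (log2 8.28). Robo3, the guidance receptor of commissural axons, was at 1725 and 1513 against 3 and 3 (log2 8.34), and Cntn2, an adhesion gene of the same axons, at 1575 and 1679 against 4 and 7 (log2 7.79). Scrt2, a repressor of newborn neurons, was at 1045 and 962 against 3 and 3 (log2 7.65), and Nhlh2, a bHLH factor of young neurons, was at 962 and 1057 and listed at 0 in the line. On day 18 Dbx1 was listed at 0 and Robo3 was at 1 and 0, and on day 24 they were at 136 and 144, and at 109 and 133. Dbx1 and Robo3 thus appeared between days 18 and 30 and were at 3 or below in the line, whereas Nhlh2 was at 47 and 54 on day 18 already. The first Xist values above the other libraries fall in the same interval, and its part in this pattern was not tested.

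**Figure D3:**
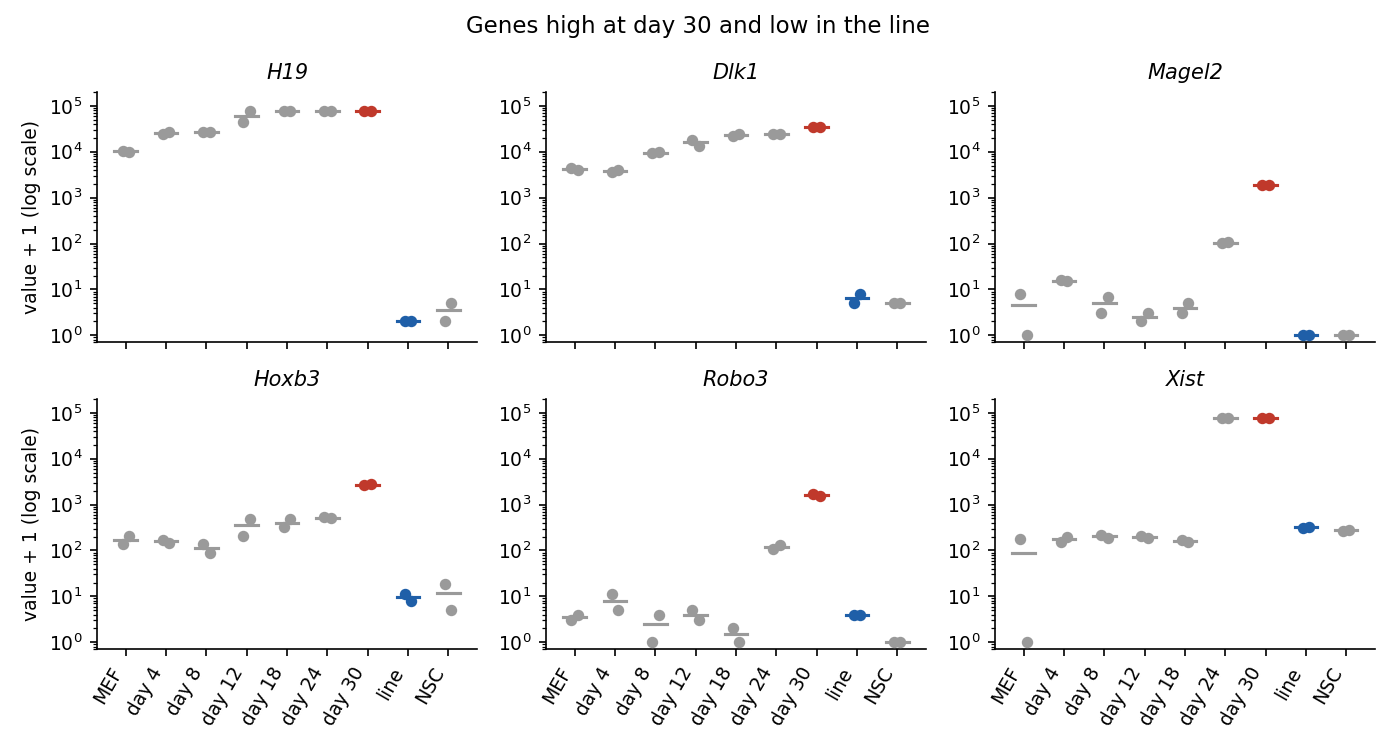
Value plus 1 on a log axis of 6 genes that were high at day 30 and low in the line, in MEFs, in the 4-factor cells at days 4 to 30, in the line and in NSCs; points are libraries, 2 per group, and bars are group means. H19 and Dlk1 are present from MEFs on, Magel2 and Robo3 appear at days 24 and 30, and Xist steps up between days 18 and 24.

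Matrix genes were higher at day 30. Of 28 fibroblast genes, 22 were higher and 2 lower (median log2 6.47), and of 31 genes for collagens and their processing 29 were higher and none lower (median log2 6.48). The 2 not called were Col16a1 and Plod1. Of the fibroblast genes 9 belong to the background class, among them Postn, Pdgfrb, Fap and Lum, and without that class 13 of 19 were higher. Col1a1, the main collagen of fibroblasts, was at 78139 and 78139 at day 30 and at 34 and 27 in the line (log2 11.24 ± 0.21, adjusted p = 3.52e-26). Col6a1 was at 29410 and 44404 and Col6a2 at 12926 and 12926, and both were listed at 0 in the line. Col18a1, a basement membrane collagen, was at 19770 and 19770 against 0 and 3 (log2 12.61 ± 0.40, adjusted p = 9.41e-21), and Col15a1 was at 6876 and 7157 against 0 and 3 (log2 11.12 ± 0.49, adjusted p = 3.06e-17). Lum, the lumican gene, was at 7445 and 7807 and listed at 0 in the line. It is the 1 gene of the background class among the 12 largest increases, since its smallest value above 0 in the table was 217.

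Further genes of mesenchymal cells followed. Pdgfrb, the receptor of mural cells and fibroblasts, was at 2849 and 2768, and Fap, a protease of activated fibroblasts, at 2862 and 3365, and both were listed at 0 in the line. Fn1, the fibronectin gene, was at 29407 and 29407 against 351 and 364 (log2 6.35). The fibroblast list was not uniform. Fbln2, a matrix fibulin gene, was at 1525 and 1471 against 10769 and 10522 (log2 -2.83), Zeb1 at 4962 and 4809 against 12929 and 12547 (log2 -1.38), and Zeb2 was not called at 1621 and 1384 against 1610 and 1626. The crest genes Ngfr, Twist1, Snai2, Pax3 and Tfap2b were the 5 of 9 neural crest and Schwann genes that were higher at day 30, against 2 that were lower, and without the background class, which holds Snai2 and Twist1, 3 of 7 were higher. Ngfr, the p75 neurotrophin receptor, was at 1300 and 1241 and Pax3, a factor of dorsal neural tube and crest, at 451 and 429, and both were listed at 0 in the line. Sox10, the defining factor of Schwann cells, was not analysed here, and Foxd3 was at 5 and 5 and was not tested.

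Contractile genes and targets of YAP and SRF were higher in 13 of 18 cases and lower in 2 (median log2 1.94). Tpm2, a tropomyosin gene, was at 676 and 734 and Ctgf, a YAP target, at 326 and 278, and both were listed at 0 in the line. Cnn2 was at 2230 and 2386 against 80 and 53 (log2 5.10). Acta2, the smooth muscle actin of myofibroblasts, was at 210 and 302 against 49 and 49 (log2 2.32). TGF-beta pathway genes were higher in 13 of 15 cases (7 with BKM_Sox2 day 24 replicate 1 kept) and lower in none (median log2 2.37). The ligand gene Tgfb2 was at 2222 and 2452 against 239 and 219 (log2 3.34), the receptor gene Tgfbr2 at 1264 and 1228 against 248 and 232 (log2 2.37), and the target Tgfbi at 8954 and 7997 against 23 and 22 (log2 8.43). These 3 genes were higher in both day 30 libraries than in either line library, while 79.7% of all genes tested did not overlap between the groups.

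**Figure D4:**
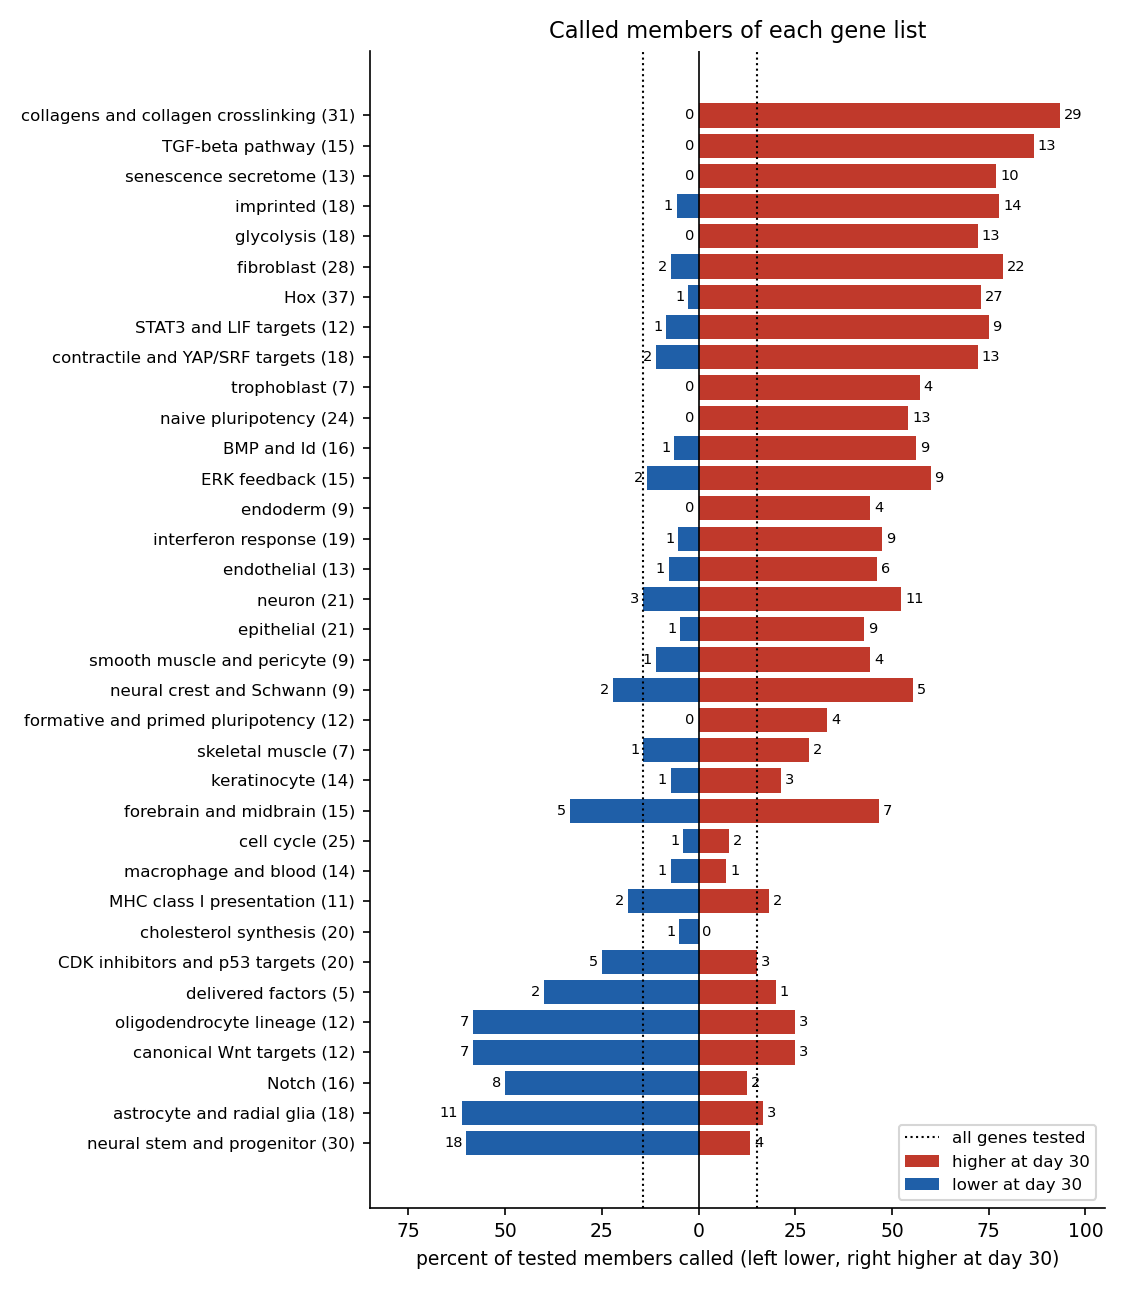
Share of the tested members of each of 35 gene lists that was called higher (right) or lower (left) at day 30 than in the line, with the number of called members at the bar ends and the number tested in brackets. Dotted lines mark the shares over all genes tested, 15.2% higher and 14.4% lower; collagens lie at the top and neural stem, radial glial and Notch genes at the bottom.

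Imprinted genes formed another group that was high at day 30, of which 14 of 18 were higher and 1 was lower (median log2 4.11). H19, a maternally expressed noncoding RNA, was at 78139 and 78139 at day 30 and at 1 and 1 in the line (log2 14.67 ± 0.42, adjusted p = 1.02e-21), the largest increase of all genes named by the rule. Its neighbour Igf2, a fetal growth factor gene, was at 44402 and 44402 against 44 and 46 (log2 9.88 ± 0.33, adjusted p = 3.31e-20). Dlk1, which encodes a membrane protein of fetal mesenchyme, was at 34127 and 34127 against 4 and 7 (log2 12.18 ± 0.39, adjusted p = 1.12e-20). Cdkn1c, the imprinted cell cycle inhibitor p57, was at 12547 and 15011 against 16 and 21 (log2 9.40 ± 0.41, adjusted p = 1.51e-17). On day 18 Dlk1 was at 21716 and 23868. H19 was at 78139 in both libraries of that day too, the highest value of its class, at which a change cannot be seen.

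Not every imprinted gene followed. Nnat, the neuronatin gene expressed in brain, was at 1657 and 1535 against 8134 and 9809 (log2 -2.48), and Gnas, at 21716 and 21716 against 19766 and 19766, was not called. Magel2, an imprinted gene of hypothalamic neurons outside the list and chosen after its values were seen, was at 1838 and 1923 at day 30, at 100 and 108 on day 24 and at 2 and 4 on day 18, and was listed at 0 in the line. Magel2 therefore had a late onset, unlike H19 and Dlk1. Of the other leading increases, Igf1, a growth factor gene, was at 4276 and 4212, Crabp1, a retinoic acid binding protein gene, at 5289 and 4962, and Mdk, the heparin-binding growth factor midkine, at 4389 and 5165. Col26a1, a collagen gene, was at 5961 and 6068. All 4 were listed at 0 in the line, and Col26a1 was also listed at 0 in MEFs and NSCs.

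Signalling genes were higher at day 30 in several lists. ERK feedback genes were higher in 9 of 15 cases and lower in 2 (median log2 1.52), among them Dusp4 at 2352 and 2222 against 48 and 34 (log2 5.75) and Spry1 at 3252 and 3252 against 645 and 500 (log2 2.51). The 2 lower genes were Dusp5, at 62 and 46 against 230 and 203 (log2 -1.98), and Etv5, at 2516 and 2408 against 5959 and 5289 (log2 -1.19), which was not called after rescaling (log2 -0.93). Egr1, at 9477 and 9477 against 10066 and 9808, was not called. Genes downstream of STAT3 and LIF were higher in 9 of 12 cases and lower in 1 (median log2 1.66), with the feedback inhibitor Socs3 at 465 and 522 against 23 and 31 (log2 4.11) and the oncostatin receptor gene Osmr at 454 and 396 against 46 and 29 (log2 3.47). The shared receptor gene Il6st was also higher, at 4737 and 4737 against 2091 and 2134 (log2 1.16), while the receptor gene Lifr was the 1 lower gene, at 857 and 888 against 2277 and 2341 (log2 -1.40). BMP and Id genes were higher in 9 of 16 cases (5 with BKM_Sox2 day 24 replicate 1 kept) and lower in 1, with Id1, a BMP target, at 1434 and 1180 against 258 and 284 (log2 2.26) and the ligand gene Bmp4 at 148 and 133 and listed at 0 in the line. The receptor gene Bmpr1b was the 1 lower, at 299 and 311 against 1360 and 1308 (log2 -2.12).

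Secreted factors of the senescence secretome were higher in 10 of 13 cases and lower in none (median log2 5.23), and in 6 of 8 without the background class. The chemokine genes Cxcl5 (831 and 734) and Ccl7 (379 and 397) were listed at 0 in the line, and the IGF binding protein gene Igfbp7 was at 667 and 679 against 16 and 16 (log2 5.23). Interferon response genes were higher in 9 of 19 cases and lower in 1 (median log2 1.45; 5 higher with a pseudocount of 16 or in a fit of the compared groups only), with Ifitm3 at 1016 and 1264 against 85 and 89 (log2 3.67). Stat2 (591 and 446 against 639 and 735) was not called. Of 11 genes of MHC class I presentation 2 were higher and 2 lower, near the shares of 15.2% and 14.4% over all genes tested. The heavy chain gene H2-K1, 1 of the 2 higher, was at 436 and 439 against 27 and 27 (log2 3.92). Most of the interferon genes that were higher, such as Bst2 at 205 and 126, had low values, and every member called higher other than Ifitm3 was at or below 205 in both day 30 libraries.

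Cell cycle genes gave few calls. Of 25, 2 were higher and 1 lower (median log2 0.27), against 15.2% and 14.4% over all genes. After rescaling 5 were higher and none lower. Top2a was at 16288 and 19766 at day 30 and at 18425 and 16288 in the line, and Mki67 at 6370 and 5874 against 3537 and 3851, and neither was called. Ccnb2, a mitotic cyclin gene, was at 1031 and 968 against 162 and 151 (log2 2.66). Cdc6 was the other gene called higher, and the related cyclin gene Ccnb1 was the 1 called lower. Of 20 genes for CDK inhibitors and p53 targets 3 were higher and 5 lower (3 lower with BKM_Sox2 day 24 replicate 1 kept), against the same shares over all genes. Cdkn1c, given above, had the largest difference of this list, while Cdkn1a, the p21 gene, was at 2463 and 2423 against 6509 and 5672 (log2 -1.31), Btg2 at 1216 and 1308 against 10520 and 9808 (log2 -3.01) and Cdkn2c, the p18 gene, at 216 and 196 against 2035 and 1997 (log2 -3.28).

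Glycolysis genes were higher at day 30 in 13 of 18 cases and lower in none (median log2 1.75). The lactate exporter gene Slc16a3 was at 3088 and 3278 against 7 and 7 (log2 8.47), and the glucose transporter gene Slc2a1 at 5077 and 5780 against 230 and 264 (log2 4.45). Ldha, which encodes lactate dehydrogenase, was at 29410 and 29410 against 5077 and 4533 (log2 2.62). Gapdh (23868 and 23868 against 26500 and 29407) and Eno1 (15008 and 13464 against 19766 and 13464) were not called. Of 20 cholesterol synthesis genes 1 was lower, Mvk, and none higher, and that call was lost after rescaling and without day 30 replicate 2 or line replicate 1 (log2 -0.981 and -0.969). Hmgcs1, the HMG-CoA synthase gene, was at 12547 and 11686 against 21719 and 21719 and was not called.

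Markers of other cell types that a reprogramming culture could hold were counted as well. Of 24 naive pluripotency genes, 13 were higher at day 30 and none lower, but the defining factor Pou5f1 was at 29 and 22 (listed at 0 in the line), and Nanog at 106 and 109 against 109 and 138 was not called. The RNA-binding protein gene Lin28b, also a gene of early neural tube, was at 761 and 714 and listed at 0 in the line. Epithelial genes were higher in 9 of 21 cases and lower in 1, with summed levels of 249 and 314 at day 30 against 46 and 91 in the line. The 9 fell to 2 with a pseudocount of 16, to 4 with the low-value filter applied within the groups compared and to 3 in a fit of those groups only. Cdh1 was at 22 and 20 against 0 and 13, a call that was lost without line replicate 1 (log2 0.615), and Epcam was at 8 and 8. Keratinocyte genes were higher in 3 of 14 cases (1 with a pseudocount of 16) and lower in 1. They summed to 228 and 313 at day 30 against 192 and 211 in the line, with Krt14 listed at 0. Of 14 macrophage and blood genes 1 was higher and 1 lower, with sums of 35 and 59 against 33 and 56 in the line. Tyrobp, C1qa and Cx3cr1 were listed at 0. Over all genes tested the shares were 15.2% higher and 14.4% lower.

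Endothelial genes were higher in 6 of 13 cases and lower in 1. Emcn, the endomucin gene, was at 2071 and 2157 against 131 and 112 (log2 4.10), but the defining gene Pecam1 was at 46 and 41 against 29 and 34 and was not called, and Tie1 was listed at 0. Of 9 smooth muscle and pericyte genes 4 were higher and 1 lower, and of 7 skeletal muscle genes 2 were higher and 1 lower. Of 7 trophoblast genes 4 were higher and none lower, and of 9 endoderm genes 4 were higher and none lower. Over all genes tested 15.2% were higher and 14.4% lower. Abcc9, a channel subunit of pericytes, was at 131 and 140, and Gata6, an endoderm factor, at 11 and 10, and both were listed at 0 in the line. Of 12 formative and primed pluripotency genes 4 were higher and none lower, with Dnmt3a at 5365 and 5365 against 2157 and 1997 (log2 1.37). With a pseudocount of 16 the higher calls among endoderm and among formative genes fell to 2 each, and in a fit of the compared groups only those among trophoblast and among smooth muscle genes fell to 2 each and those among formative genes to 1. The part of such cells in the differences was not tested.

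Of the genes of the delivered factors, Sox17 was higher and Pou3f4 lower at day 30, after Dox had been withdrawn, than in the line, and Klf4 and Myc were not called. Sox17 was at 36 and 30 and listed at 0 in the line, after 4018 and 5876 on day 18 and 167 and 144 on day 24. Klf4 was at 36 and 38 against 41 and 52 (log2 -0.31, adjusted p = 0.0685), and Myc at 582 and 569 against 661 and 525 (log2 -0.03, adjusted p = 0.937). Pou3f4 was at 545 and 474 against 1122 and 1055 (log2 -1.09 ± 0.25, adjusted p = 0.000402). The size of that difference fell below 2-fold without day 30 replicate 2 (log2 -0.995) and after rescaling (log2 -0.84). In NSCs Pou3f4 was at 1194 and 1125. The files do not separate lentiviral from endogenous transcripts of these genes.

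The differences between day 30 and the line were then set beside those between MEFs and NSCs, which come from other libraries. MEFs and NSCs differed at 34.4% of genes, with 3467 genes (16.7%) higher and 3678 genes (17.7%) lower in MEFs. Of the 3160 genes higher at day 30, 1934 were also higher in MEFs, which is 61.2% of the first list and 55.8% of the second. Of the 2994 genes lower at day 30, 1764 were also lower in MEFs, 58.9% and 48% of the lists. Opposite calls were few, with 191 genes higher at day 30 and lower in MEFs and 130 the other way. Of the genes higher at day 30, 1035 (32.8%) were not called between MEFs and NSCs, and Magel2, Col26a1 and Dbx1 belong to them.

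**Figure D5:**
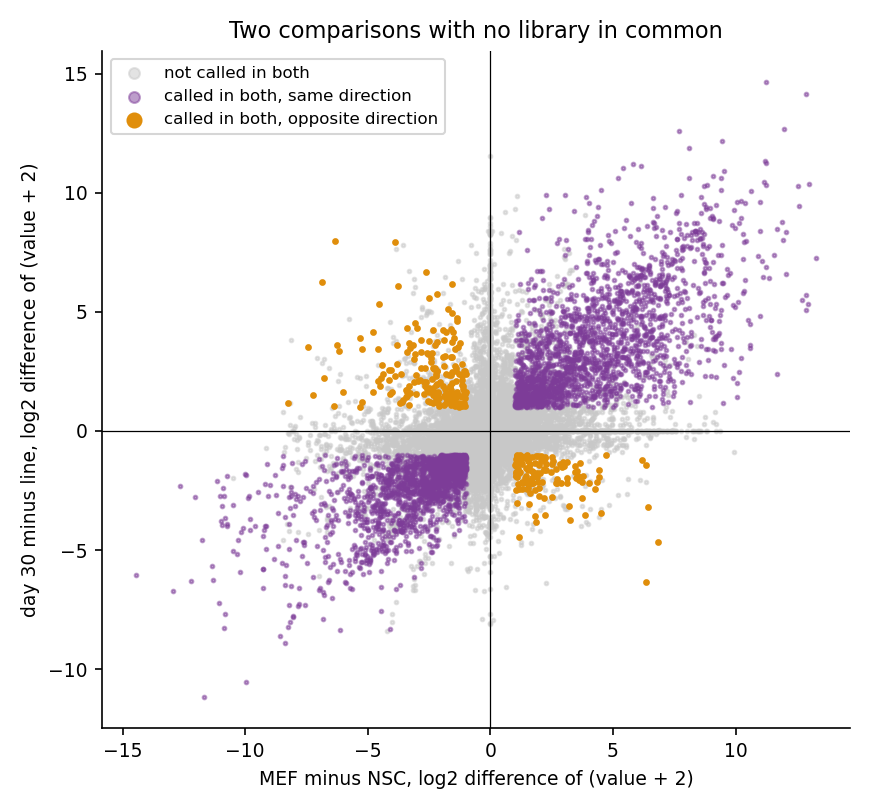
Log2 difference of (value + 2) between MEFs and NSCs (x axis) and between day 30 cells and the line (y axis), 1 point per gene tested. Genes called in both comparisons lie mostly in the upper right (1934) and lower left (1764), and few lie in the upper left (191) or lower right (130).

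Among the fibroblast genes, Col1a1 was at 78139 and 78139 in MEFs and at 27 and 33 in NSCs, and Postn at 16288 and 16288 in MEFs and listed at 0 in NSCs. Levels at day 30 could pass those of MEFs: Igf1 was at 328 and 309 in MEFs against 4276 and 4212 at day 30, Mdk at 282 and 337 against 4389 and 5165, Cdkn1c at 623 and 495 against 12547 and 15011, and Lum at 572 and 529 against 7445 and 7807. For each of these 4 genes both day 30 libraries were above both MEF libraries, though that difference was not tested. In NSCs Olig2 was at 15011 and 16291, Hepacam at 6160 and 7157 and Hes5 at 3168 and 4213, and the line was not tested against NSCs.

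The cocktail of Klf4 and eSox17FNV gave a second pair of day 30 cells and line, with no library in common with the first. There 3454 genes (16.6%) were higher and 3320 (16%) lower at day 30, 32.6% of genes in all. The test of the difference between the 2 gaps called 5714 genes (27.5%), of which 2809 (13.5%) had a higher and 2905 (14%) a lower difference in the 4-factor pair. With BKM_Sox2 day 24 replicate 1 kept in the fit 2508 were called. Olig2 was listed at 0 in both K_FNV day 30 libraries and at 26505 and 26505 in iNSC_KF, and the difference of the gaps was called (adjusted p = 6.32e-20). Sox2 was likewise listed at 0 at day 30 of K_FNV against 2920 and 1972 in iNSC_KF (adjusted p = 2.57e-07 for the difference of the gaps). The difference of the gaps was not called for Postn (2436 and 1837 in K_FNV, listed at 0 in iNSC_KF, adjusted p = 0.953) or for Fabp7 (109 and 181 against 34127 and 26500, adjusted p = 0.126). H19, Dlk1 and Igf2 were high at day 30 of both cocktails, with H19 at 78139 and 78139 and Igf2 at 44402 and 21716 in K_FNV. Of the late neural genes, Dbx1 and Nhlh2 were listed at 0 in K_FNV at day 30, and Robo3 was at 16 and 20. The difference of the gaps was called for all 3 (adjusted p = 7.68e-17 for Dbx1, 3.17e-07 for Nhlh2 and 7.36e-08 for Robo3).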

How the data were processed

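Per the submitters' processing notes, reads were handled with Bowtie2 2.0, RSEM and mm10; how the values were normalized is not given in the sources used here. The authors deposited whole-number normalized tag counts, recorded here as a score, in a table of 21241 genes. Each column had 10 genes at the same highest value, 1 in each of 10 equal classes of genes by GC content (longest GENCODE M21 transcript), a pattern that quantile normalization within GC classes gives. Such values hold no read depth, so counting error could not be given.

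Groups came from the labels; the NSC columns could be matched to their group only, and 1 column was not used. Values were analysed as log2(value + 2) for genes of at least 10 in at least 2 libraries, with 1 limma 3.58.1 model (R 4.3.3) over 53 libraries in 28 groups, a variance trend, two-sided tests and Benjamini-Hochberg adjustment over 20760 genes. Genes were called at an adjusted p below 0.05 and a difference of at least 1 on the log2 scale. Where every library of a group is listed at 0, values are printed without a fold change, but list medians include such genes on the log2(value + 2) scale. In 3 simulations of this comparison, 84% to 86% of genes changed by 2 and 94% to 95% of those changed by 3 (log2) were recovered, with 7 to 11 false calls over 20803 to 20821 genes. Each simulation changed only 100 genes of each size, while 6154 genes were called in the data. Recovery and the number of false calls depend on the share of genes changed, so neither carries over to the 6154. The changed genes were drawn only from genes above a set mean level, so recovery for genes low in both groups was not measured. The noise was normal on the log2 scale and does not reproduce values that step from 0.

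Named genes were the 12 largest differences in each direction (called, libraries not overlapping, a mean of at least 100 in a group, no unnamed gene models), up to 4 called and 2 uncalled members of each list, and the markers and factors; the 4 largest each way were taken for the difference of the gaps. Some genes that the rule gives are not reported here. The members, the 35 lists (581 genes) and the rule were chosen with earlier results of these data known. Promoters came from RefSeq (GRCm38.p6).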

Additional observations from a re-analysis of the deposited data

Results flagged for a closer look

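The day 30 to line difference of the 4-factor cells was set against that of the Klf4 and eSox17FNV cells, and the difference between them was tested in the same limma model with Benjamini-Hochberg adjustment. It was called for 5714 genes. Among the marker and factor genes, Olig2 (adjusted p = 6.32e-20) and Sox2 (adjusted p = 2.57e-07) were listed at 0 in both K_FNV day 30 libraries. Both were above 0 at day 30 of the 4-factor cells. There Olig2 lay below the 95th percentile of the receptor genes in each library (617.5 and 585) and Sox2 above it. Klf4 was at 744 and 605 at day 30 of K_FNV and at 31 and 27 in iNSC_KF, against 36 and 38, and 41 and 52, in the 4-factor pair (adjusted p = 7.68e-17). Sox17 was at 174 and 167 at day 30 of K_FNV and at 36 and 30 at day 30 of the 4-factor cells, and listed at 0 in both lines (adjusted p = 6.01e-07). Pou3f4, which was not delivered in K_FNV, was at 19 and 14 and at 157 and 156 in its line, a wider gap than that of the 4-factor pair (adjusted p = 2.17e-05). Myc was at 601 and 493 at day 30 of K_FNV and at 1548 and 2352 in iNSC_KF, while the 4-factor pair was not called (adjusted p = 2.46e-06).

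Among the genes that the naming rule gives for the difference of the gaps, Gpr149, Vmn1r72 and Olfr1167 lay far below 0. Gpr149, an orphan receptor gene, was at 455 and 494 at day 30 of K_FNV and listed at 0 in its line, but was listed at 0 at day 30 of the 4-factor cells (adjusted p = 5.25e-12). Vmn1r72 (adjusted p = 0.0222) and Olfr1167 (adjusted p = 0.0314) are receptor genes of the background class. Far above 0 were Neurod6 (adjusted p = 1.56e-25), Zfp711 (adjusted p = 2.68e-08) and Luzp4 (adjusted p = 8.86e-05). Neurod6, a neuronal bHLH gene, was at 170 and 199 at day 30 of the 4-factor cells and at 324 and 322 in iNSC_KF, and was listed at 0 in the other libraries of both pairs. Of these 3 genes, the smallest values above 0 in the table were 170 (Neurod6), 456 (Zfp711) and 79 (Luzp4), so their differences are single steps from 0.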

How the results depend on the processing

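With BKM_Sox2 day 24 replicate 1 kept in the fit, which widens the spread shared by all groups, 3763 genes were called between day 30 and the line, 1577 of them lower. The lower calls fell to 2378 between MEFs and NSCs, to 2009 between K_FNV day 30 and iNSC_KF, and to 962 for those shared by day 30 and MEFs. The difference of the gaps gave 2508 genes, 1277 higher and 1231 lower. In alternatives chosen after seeing the data, 1860 called genes (954 higher, 906 lower) had a group mean above 708, the highest 95th percentile of the receptor genes. Refits without genes whose values start at 100 and without X and Y chromosome genes gave 5966 and 5894 calls. All other counts of calls over the whole table were within 1.5 times, and leaving out 1 of the 4 compared libraries gave 5730 to 5877. Of 70 counts of calls in gene lists, 18 moved by over 1.5 times with that library kept, 13 with a pseudocount of 16, 13 in a fit of the compared groups only and 8 or fewer under each other alternative, mostly in lists with few calls.

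Replicate numbers shared no deviation (correlation -0.003), so they share only a number, and the replicate block gave 6182 calls. Of 2630 values of 178 genes named above over these alternatives, 2554 kept their call, 74 lost it, 2 gained it and none reversed. Of the losses, 24 came with the kept library, and Fabp7, Sox2, Olfr731, Nat1 and Tmem71 lost theirs without any 1 compared library. Hoxa6, Mvk (log2 -0.981 without day 30 replicate 2, -0.969 without line replicate 1) and Cdh1 (adjusted p = 0.0601 without day 30 replicate 1, 0.533 without line replicate 1) lost theirs in part. With 2 libraries a group and unknown depth, low values cannot be told from background.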

Other observations

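The share of genes called rose with GC content, from 11.8% in the tenth of lowest GC content to 49.2% in the tenth of highest. In the receptor genes 8.42% of 558 tested were called, 12 higher and 35 lower at day 30. Of 521 tested genes whose values start at 100, 171 were higher and 24 lower.

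Of 728 X-linked genes, 135 (18.5%) were higher and 76 (10.4%) lower at day 30, against 15.4% and 14.6% of 19636 autosomal genes. Of 383 Y-linked genes, 4 (1.04%) were higher and 45 (11.7%) lower at day 30. Kdm5d lay on the lower side, at 901 and 834 at day 30 against 2653 and 2589 in the line. Eif2s3y lay on the other side, at 1732 and 1814 against 804 and 630.

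Of genes below 10 in every MEF and NSC library, some had higher values in both day 30 libraries than at any earlier day. Emilin3, a matrix gene, was at 933 and 1089 at day 30 and at 25 and 29 on day 24. Ly6h, a neuronal surface gene, was at 776 and 781 and at 371 and 396. Gpr83, a brain receptor gene, was at 727 and 617 at day 30 and also at 2352 and 563 at day 30 of K_FNV, so it was shared by both cocktails.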
